A study of Bos taurus with 36 samples.

Results

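The genes described here are the ligands, receptors and intracellular SMAD proteins of the transforming growth factor beta (TGFB) and bone morphogenetic protein (BMP) family in cattle. They were taken from the count table by symbol alone, as every protein-coding RefSeq gene whose name places it among the TGFB, BMP, growth and differentiation factor (GDF), activin, inhibin, nodal and lefty ligands, the TGFBR, ACVR and BMPR receptors or the SMADs. This gave 52 genes of the 35092 in the table, with 30 ligand genes, 12 receptor genes and 8 SMADs. The remaining pair share the BMP prefix without being ligands: BMP1 is a protease that cuts procollagen and BMP antagonists, and BMP2K is a cytoplasmic kinase.

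RNA was measured in the heart, gonad and liver of 10 male bovine fetuses at Day 42 of gestation and in the blood of the heifers that carried them. A Day 7 embryo had been placed in the uterus on Day 7 of the cycle (ET_D7) or on Day 9 (ET_D9), 5 fetuses each. The first is a synchronous transfer and the second an asynchronous one, into a uterus ahead of the embryo. Fetuses are numbered here from 1, the lightest at 1.253 g, to 10, the heaviest at 1.69 g. Fetuses 1 to 5 were ET_D7 and fetuses 6 to 10 were ET_D9, so the 2 groups do not overlap in weight, and weight and transfer group cannot be told apart. The 36 libraries comprised 9 hearts (no fetus 7), 9 gonads (no fetus 2), 8 livers (no fetuses 6 and 7) and 10 maternal bloods. Organ libraries were made with a poly(A) mRNA kit and blood libraries with another stranded kit, so no test was run between blood and the organs. Levels are counts relative to library size (CPM), scaled by the trimmed mean of M-values (TMM), and a level of one gene was not compared with that of another, because no gene lengths were used.

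Ligands of this family are secreted dimers that bring together type I and type II receptor kinases. The activated type I receptor phosphorylates receptor SMADs, of which SMAD2 and SMAD3 serve the TGFB and activin branch and SMAD1, SMAD5 and SMAD9 the BMP branch. Both kinds enter the nucleus with the common partner SMAD4, while the inhibitory SMAD6 and SMAD7 act back on the receptors. The family is known for roles in the patterning of the heart tube and its valves, in the differentiation of gonadal cells and in the control of iron uptake by the liver.

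Some libraries stood apart, which touches the results that follow. Total counts per library lay between 18231089 and 40812354, and the share on mitochondrial genes was 17.13% to 57.27% in the heart and 16.26% to 36.83% in the liver, against 3.31% to 7.225% in the gonad libraries. The gonad libraries of fetuses 6 and 8 and the liver libraries of fetuses 1 and 2 differed from each other by less than the sampling noise at the median gene, so each pair was counted as 1 sample in means and SDs, giving n = 8 for the gonad and n = 7 for the liver. In the liver, 333 genes had at most 2 counts in some libraries and at least 300 in the others, a pattern seen at 1, 1 and 2 genes in heart, gonad and blood. In the libraries labelled gonad, 9 Sertoli cell genes of the fetal testis summed to 16.5 to 26.4 CPM (SOX9 from 0.378 to 6.16 CPM and AMH from 0.992 to 2.26 CPM). Of these, CLDN11 had a median of 9.23 CPM there and 0.673 CPM in the hearts. The 10 genes of the mesonephros and nephron summed to 453 to 581 CPM (PAX2 from 103 to 138 CPM), against 17.1 to 26.6 CPM in the hearts and 122 to 277 CPM in the livers. Not all 10 were high, as UMOD did not pass 0.0677 CPM, SLC34A1 did not pass 1.81 CPM and CDH16 was 2.68 to 5.76 CPM, against 97.4 to 253 CPM in the livers. These libraries are therefore called gonad libraries here only by their label. In the blood libraries of fetuses 2 and 5, 8 heart muscle genes summed to 3750 and 1280 CPM, against a median of 1.67 CPM over the 10. In such bulk samples, fewer cells of a type and less RNA per cell cannot be told apart.

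Across the 3 organs, receptors and SMADs were mostly lowest in the liver and often highest in the gonad libraries, while the few ligands called higher were spread over the organs. With edgeR's quasi-likelihood test over all 26 organ libraries, a gene was called higher in an organ when its adjusted p was under 0.05 against both other organs. On this rule 8 of the 52 members were higher in the heart (11.1% of all 25095 genes tested), 15 were higher in the gonad libraries (14.9% of all genes) and 5 were higher in the liver (23.1% of all genes). In the other direction, 27 members were lower in the liver than in heart and gonad alike (19.6% of all genes), 6 were lower in the gonad libraries (13.6%) and 1 was lower in the heart (8.26%). Of the 18285 genes that reached 10 counts in 8 or more organ libraries, 43 were members, of which 27 were lower in the liver (24.8% of those genes). With the near-identical pairs merged, an alternative chosen after the data were seen, 8, 15 and 5 members were higher in heart, gonad and liver. The shares of all genes given above belong to the fit without merging. The part of mesonephric or other cell content in these organ differences was not tested. In the annotation 13 of the 52 members overlap another gene, and counts there may be shared.

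Per contrast, 28 members differed between heart and gonad (46.6% of all genes), 36 between heart and liver (58.6%) and 40 between gonad and liver (64.4%). Of the 12 receptors, 11 were lower in the liver, 8 were higher in the gonad libraries and 2 in the heart. Of the 8 SMADs, 7 were lower in the liver and 4 were higher in the gonad libraries. Of the 30 ligands, 6 were higher in the heart (11.1% of all genes), 2 in the gonad libraries (14.9%) and 5 in the liver (23.1%), and 8 were lower in the liver (19.6%). The median log2 fold change of gonad over liver was 1.87 for the receptors and 2.39 for the SMADs, against 0 for all genes, and the median of heart over liver was 1.09 and 1.63, against 0. For the 28 ligands with a bound or a fitted value these medians were −0.23 and 0.29. By fitted values alone, as used for all genes, they were 0.06 and 0.2 over the 30 ligands. In DESeq2, which has its own size factors and its own test, the median of all genes for gonad over liver was −0.27. In that fit 15 members were higher in the gonad libraries, and the share of all genes is not given here.

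Transcripts of INHBA and of a group of BMPs were highest in the heart. INHBA, which encodes the subunit of activin A, ranged from 46.3 to 185 CPM in the 9 hearts with a median of 115 CPM, from 4.64 to 66.4 CPM in the livers (median 13.7 CPM) and from 0.646 to 2.46 CPM in the gonad libraries (median 1.19 CPM). The heart and gonad ranges did not overlap, and the 2 highest livers, of fetuses 3 and 4, reached into the heart range. The log2 fold change of heart over gonad was 6.33 (SE 0.474, adjusted p = 5.81e-12, edgeR), and over liver it was 2.13 (SE 0.405, adjusted p = 5.37e-05, edgeR). BMP7, a ligand needed for kidney and eye formation, was the steadiest of the heart-high members at 90.9 ± 4.96 CPM (SD, n = 9), with a range from 83.8 to 98.6 CPM. In the gonad libraries it was 21.4 ± 2.2 CPM (SD, n = 8) and in the liver 4.1 ± 1.27 CPM (SD, n = 7). No 2 organs overlapped for BMP7, and its fold changes over gonad (log2 2.09, SE 0.17, adjusted p = 3.06e-11, edgeR) and over liver (log2 4.59, SE 0.202, adjusted p = 2.25e-17, edgeR) were both above the spread.

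BMP2, which patterns the atrioventricular canal, ranged from 15.8 to 26.1 CPM in the hearts (median 18.5 CPM), from 5.27 to 8.27 CPM in the gonad libraries and from 2.15 to 9.45 CPM in the livers, so that every heart lay above every other organ library. Its smaller log2 fold change was 1.57, over the gonad libraries (SE 0.21, adjusted p = 4.01e-07, edgeR). BMP6, the ligand best known for inducing hepcidin, was higher in the heart (15.3 to 25.3 CPM, median 18.4 CPM) than in the liver (5.36 to 17.1 CPM, median 12.2 CPM), with a log2 fold change of 0.76 (SE 0.206, adjusted p = 0.00257, edgeR) and overlapping ranges. In the gonad libraries BMP6 did not pass 2.58 CPM. BMP5, a close relative of BMP6 and BMP7, had a median of 47.1 CPM in the heart and 35.5 CPM in the gonad libraries with overlapping ranges, and its log2 fold change of 0.55 (SE 0.202, adjusted p = 0.0257, edgeR) lost its call when fetus 3, 7, 8 or 10 was left out (0.41 to 0.52). GDF6, a joint-patterning ligand, had 0.616 to 0.906 CPM in the hearts, or at most 30 counts in a library, and at most 0.33 CPM in the gonad libraries. Its log2 fold change of 1.84 (SE 0.7, adjusted p = 0.0325, edgeR) was 1.69 and no longer called with the fetus as a block, and the call was also lost without fetus 3, 4, 7 or 9 (1.74 to 1.89).

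Both heart-high receptors were type I receptors. ACVR1, which carries BMP signals, ranged from 31.1 to 52.8 CPM in the hearts, from 16.3 to 29.1 CPM in the gonad libraries and from 1.69 to 12.7 CPM in the livers. These 3 ranges did not overlap, and the log2 fold change of heart over gonad was 0.87 (SE 0.228, adjusted p = 0.00237, edgeR). ACVR1B, an activin receptor, had a median of 41.2 CPM in the heart, 20.9 CPM in the gonad libraries and 13.2 CPM in the liver, with overlap between heart and gonad (log2 fold change 0.74, SE 0.201, adjusted p = 0.00323, edgeR).

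**Figure D1:**
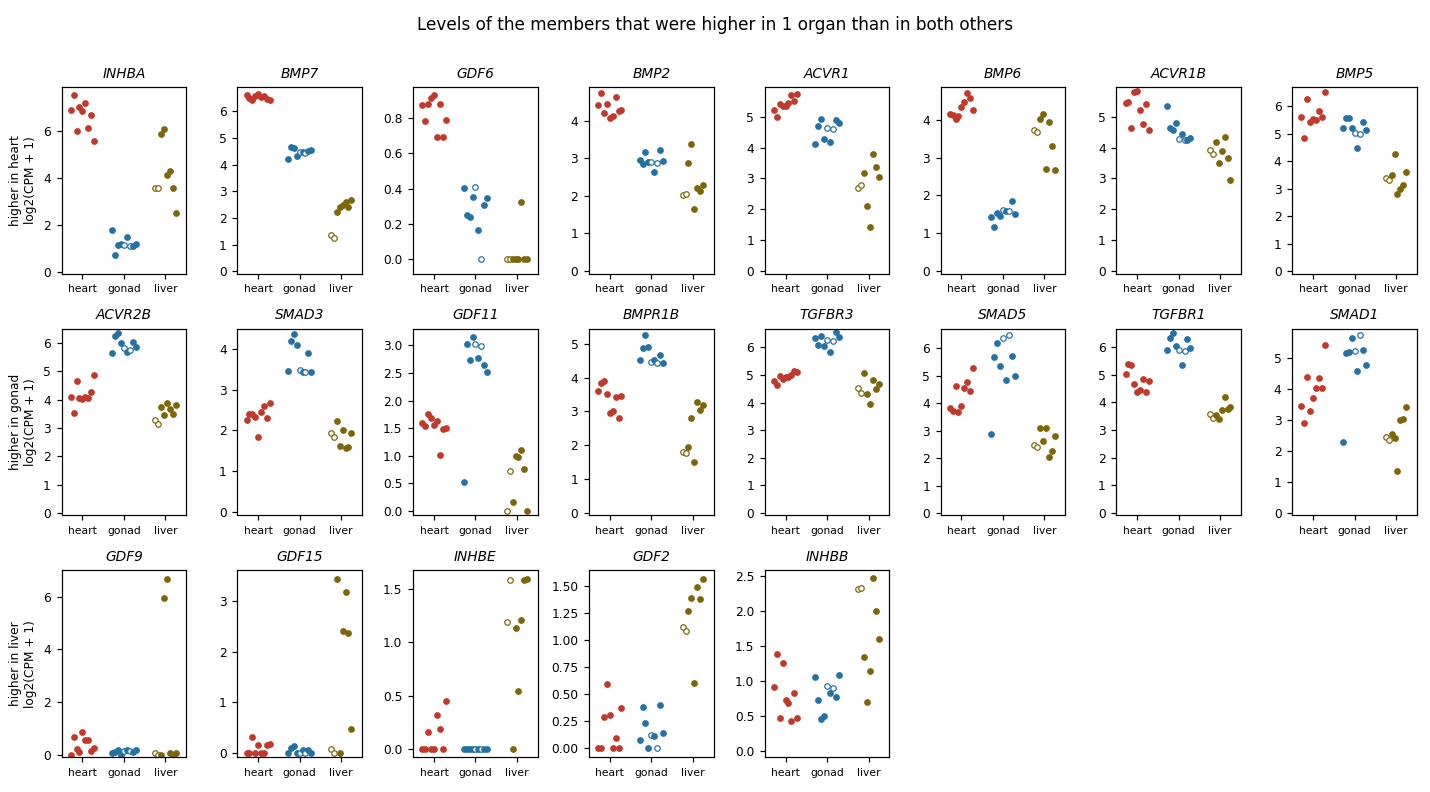
Levels of the members higher in 1 organ than in both others, as log2(CPM + 1) in each heart (red), gonad (blue) and liver (brown) library, ordered by fetal weight within an organ, with up to 8 members per organ and open circles for the libraries of near-identical pairs. The hearts of BMP7 sit between 83.8 and 98.6 CPM above all other libraries, while GDF9 in the liver rests on 2 of the 8 libraries.

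BMP10 is a ligand of the heart's trabeculated muscle in other mammals. Its counts were 0 in all gonad and all blood libraries. In the heart it reached 1.53 CPM with a median of 0.453 CPM and was at 0 in fetus 2, and in the liver it ranged from 0.213 to 1.53 CPM. Against a floor of 3 counts in a gonad library (0.057 CPM), the mean heart level was at least 12-fold higher and the mean liver level at least 13.3-fold higher. The heart over liver log2 fold change was −0.01, with an SE of 0.726 at these low counts.

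In the liver, the 5 higher ligands were expressed at low counts or in some livers only. GDF2, also known as BMP9 and secreted by the liver, was the most evenly present, at 0.521 to 1.96 CPM in the livers, or at most 43 counts. Its heart and gonad levels were at most 0.507 and 0.317 CPM, so every liver lay above every heart and gonad library, and its smaller log2 fold change was 3.17, over the heart (SE 0.83, adjusted p = 0.00182, edgeR). INHBE, a liver-secreted activin subunit, ranged from 0 in fetus 3 to 2.03 CPM (median 1.29 CPM) and was at 0 in all gonad libraries. The mean liver level was at least 21.6-fold above the gonad floor of 3 counts per library, and its log2 fold change over the heart was 3.61 (SE 0.945, adjusted p = 0.00277, edgeR). INHBB, the subunit of activin B, had 2.42 ± 1.47 CPM (SD, n = 7) in the livers against 0.79 ± 0.45 CPM (SD, n = 9) in the hearts, with overlapping ranges and a log2 fold change of 1.73 (SE 0.4, adjusted p = 0.000524, edgeR).

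GDF15 and GDF9 were uneven between livers. GDF15, a hormone released under cell stress, had 83 to 191 counts in the livers of fetuses 3, 5, 8 and 9, 6 counts in fetus 10 and at most 1 in fetuses 1, 2 and 4. No heart library had more than 9 counts of it, and the log2 fold change of liver over heart was 5.45 (SE 1.17, adjusted p = 0.000234, edgeR). GDF9, which is known as an oocyte factor, had 853 and 3078 counts in the livers of fetuses 4 and 5 and at most 1 count in the other 6. It was the only member among the 333 liver genes that jumped from at most 2 to at least 300 counts. Its log2 fold change of 5.92 over the heart (SE 1.39, adjusted p = 0.000627, edgeR) was 1.57 and not called with the fetus as a block, and it was −2.82, with the opposite sign, in DESeq2.

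The TGFB ligands themselves had 2 patterns. TGFB1 was at 32.4 ± 5.7 CPM (SD, n = 9) in the hearts and 32.4 ± 6.07 CPM (SD, n = 7) in the livers, and at 5.2 ± 0.85 CPM (SD, n = 8) in the gonad libraries. No gonad library passed 6.13 CPM and no heart or liver was under 23.7 CPM (heart over gonad, log2 2.63, SE 0.132, adjusted p = 9.58e-16, edgeR). TGFB1 overlaps HNRNPUL1 and CCDC97 in the annotation, and the counting options were not given in the sources used here. TGFB2 and TGFB3, which act in heart valve and palate formation, were instead low in the liver. TGFB2 had medians of 37.6, 38.4 and 1.5 CPM in heart, gonad and liver, and heart over liver was 4.19 on the log2 scale (SE 0.303, adjusted p = 1.22e-12, edgeR). TGFB3 had medians of 20.7, 17.4 and 3.31 CPM, with 2.41 for heart over liver (SE 0.176, adjusted p = 1.53e-12, edgeR). Between heart and gonad the log2 fold changes were −0.11 for TGFB2 (SE 0.246) and 0.24 for TGFB3 (SE 0.158), neither of them called.

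BMP4, GDF11 and GDF10 completed the well-detected ligands. BMP4, a mesoderm inducer, was higher in the gonad libraries (61.9 to 104 CPM, median 70.3 CPM) than in the heart (39.7 to 70 CPM) and the liver (32.4 to 63.8 CPM), by 0.52 on the log2 scale over the heart (SE 0.122, adjusted p = 0.00073, edgeR). GDF11, which sets the position of the hind body, was at 4.74 to 7.87 CPM in 8 gonad libraries and at 0.432 CPM in the one of fetus 1, against at most 2.37 CPM in the hearts. Its log2 fold change over the heart was 1.57 (SE 0.517, adjusted p = 0.014, edgeR), and with the fetus as a block it was 1.27 and not called. GDF10 was at 7.59 ± 2.35, 6.96 ± 2.01 and 7.38 ± 1.7 CPM in heart (SD, n = 9), gonad (SD, n = 8) and liver (SD, n = 7), with no log2 fold change above 0.11 in size. GDF1 was lower in the liver, by 0.96 against the heart (SE 0.261, adjusted p = 0.00253, edgeR). It overlaps CERS1 and UPF1 in the annotation, and its counts may be shared with theirs. BMP3, an antagonist-like BMP of bone, was not called higher or lower in any organ.

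All 4 type II receptors were higher in the gonad libraries than in heart and liver, and the liver was lower than both. ACVR2B, which binds activins and GDF11, had the largest log2 fold change of them over the heart, with 49 to 80.6 CPM in the gonad libraries against at most 28.6 CPM in the hearts and 7.91 to 13.7 CPM in the livers. The gonad range lay clear of both, and the log2 fold change over the heart was 1.78 (SE 0.156, adjusted p = 1.61e-10, edgeR). TGFBR2, the type II receptor of the TGFB ligands, had medians of 29.3, 14.3 and 8.06 CPM in gonad, heart and liver (gonad over heart, log2 0.91, SE 0.19, adjusted p = 0.000206, edgeR). ACVR2A and BMPR2 differed less, with gonad over heart at 0.63 (SE 0.185, adjusted p = 0.00591, edgeR) and 0.37 (SE 0.154, adjusted p = 0.0475, edgeR). BMPR2 was not called higher in the gonad libraries without fetus 1, 2, 4, 5, 6 or 9, nor with mitochondrial genes left out of the normalization.

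Among the type I receptors, BMPR1B, BMPR1A and TGFBR1 were higher in the gonad libraries. BMPR1B, a receptor of GDF5 and several BMPs, ranged from 20.5 to 37.4 CPM there, from 6.05 to 13.8 CPM in the hearts and from 1.82 to 8.64 CPM in the livers. The gonad range stood apart from both, with a log2 fold change of 1.35 over the heart (SE 0.263, adjusted p = 9.58e-05, edgeR). TGFBR1 had medians of 61.9 CPM in the gonad libraries, 26.7 CPM in the heart and 11.5 CPM in the liver (gonad over heart, log2 1.22, SE 0.161, adjusted p = 2.94e-07, edgeR). BMPR1A, the broadly expressed BMP receptor, had medians of 71.4, 47.4 and 11.7 CPM in the same order. TGFBR3, the co-receptor betaglycan, ranged from 56.3 to 92.6 CPM in the gonad libraries and did not pass 34.5 CPM in the heart or 32.8 CPM in the liver (gonad over heart, log2 1.35, SE 0.122, adjusted p = 2.95e-10, edgeR). ACVRL1, the endothelial receptor of GDF2 and BMP10, was at 10.1 ± 0.92 CPM (SD, n = 9) in the hearts and 8 ± 1.26 CPM (SD, n = 8) in the gonad libraries, and lower in the liver (2.1 ± 0.815 CPM, SD, n = 7), by 2.33 on the log2 scale against the heart (SE 0.212, adjusted p = 1.58e-10, edgeR). ACVR1C, the receptor of nodal and activin B, had no more than 40 counts in any library. It was not called higher or lower in any organ against both others. In the contrast of gonad over liver alone its log2 fold change was −2.33 (SE 0.918, adjusted p = 0.0281, edgeR).

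Among the SMADs, SMAD1, SMAD3, SMAD4 and SMAD5 were higher in the gonad libraries. SMAD3 ranged from 9.78 to 19.5 CPM there, from 2.6 to 5.43 CPM in the hearts and from 1.98 to 3.71 CPM in the livers, so every gonad library lay above every heart and liver library (gonad over heart, log2 1.62, SE 0.193, adjusted p = 5.39e-08, edgeR). Its partner SMAD2 had medians of 64.9 CPM in the heart and 71.8 CPM in the gonad libraries, with no call between them, and was lower in the liver at 25 CPM (heart over liver, log2 1.42, SE 0.258, adjusted p = 2.84e-05, edgeR). SMAD4, shared by both branches, had medians of 97.8, 65.4 and 12.5 CPM in gonad, heart and liver, and the liver range of 9.42 to 22.6 CPM lay under all other libraries. The gonad over liver difference of SMAD4 was 2.82 on the log2 scale (SE 0.172, adjusted p = 2.93e-14, edgeR).

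Among the BMP-branch SMADs, SMAD1 and SMAD5 were low in the gonad library of fetus 1. SMAD5 ranged from 27.8 to 89.4 CPM in 8 gonad libraries and was 6.4 CPM in that of fetus 1, with 11.7 to 38.2 CPM in the hearts and 3.12 to 7.59 CPM in the livers. Gonad over heart was 1.29 on the log2 scale (SE 0.323, adjusted p = 0.0015, edgeR). SMAD1 ranged from 23.1 to 52.2 CPM in 8 gonad libraries, with 3.89 CPM in fetus 1, against 6.55 to 41.9 CPM in the hearts. Its log2 fold change of 1 (SE 0.363, adjusted p = 0.0242, edgeR) was not called without fetus 4, 5, 6, 8 or 9 (0.86 to 0.97). SMAD9 had medians of 26.7, 21 and 4.13 CPM in gonad, heart and liver, and the gonad and heart ranges overlapped (log2 fold change of heart over gonad −0.58, SE 0.274, adjusted p = 0.0823, edgeR). With the fetus as a block SMAD9 was called higher in the gonad libraries too.

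The inhibitory pair split. SMAD6 did not share the low liver level of the other SMADs, with 44.9 ± 6.68 CPM (SD, n = 7) in the livers, 45.8 ± 10.9 CPM (SD, n = 9) in the hearts and 29.4 ± 4.07 CPM (SD, n = 8) in the gonad libraries. It was lower in the gonad libraries than in the heart by 0.65 on the log2 scale (SE 0.124, adjusted p = 7.84e-05, edgeR), and the heart over liver fold change was 0.01 (SE 0.127). SMAD7, which blocks both branches, was at 20.1 ± 7.34 CPM (SD, n = 9) in the hearts, 17.6 ± 3.64 CPM (SD, n = 8) in the gonad libraries and 5.68 ± 2.92 CPM (SD, n = 7) in the livers, and heart over liver was 1.65 (SE 0.258, adjusted p = 3.3e-06, edgeR).

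Of the members that are neither ligand, receptor nor SMAD, BMP1 was lower in the liver (medians of 91.6, 95 and 37.1 CPM in heart, gonad and liver), and BMP2K was the single member lower in the heart than in both others (8.02, 15.9 and 10.9 CPM). Several ligands were barely detected. BMP15, an oocyte factor, had 1 count over all 36 libraries. GDF3 and BMP8B did not pass 6 counts in any library, NODAL did not pass 10 and LEFTY2 did not pass 11. GDF5, GDF7, BMP8A, ACVR1C, INHBC and INHA were present at low or uneven counts and were not called in any organ against both others. INHA, the alpha subunit of inhibin and a Sertoli cell product, was at 4.32 to 5.4 CPM in the hearts, 0 to 9.01 CPM in the gonad libraries and 0 to 19.7 CPM in the livers.

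Other genes of the pathway, 65 symbols taken as a list with 61 of them tested, were placed beside the members. Of these, 18 were higher in the heart (11.1% of all genes), 13 in the gonad libraries (14.9%) and 12 in the liver (23.1%), and 29 were lower in the liver (19.6%). Of 13 extracellular matrix and latency proteins, 7 were higher in the heart and 8 were lower in the liver. One of the 7 was LTBP2, which binds latent growth factor complexes, at 180 ± 24.4 CPM (SD, n = 9) in the hearts and 4.87 over the gonad libraries on the log2 scale (SE 0.155, adjusted p = 5.57e-20, edgeR). Of 17 secreted antagonists, 5 were higher and 6 lower in the liver. Those higher included CHRD (chordin, which holds BMPs) at 355 ± 130 CPM (SD, n = 7) against 12 ± 2.7 CPM (SD, n = 9) in the hearts, and FST (follistatin, which holds activins) at 170 ± 71.7 CPM (SD, n = 7) against 12.3 ± 4.2 CPM (SD, n = 9). HAMP, the hepcidin gene induced by BMP6, was at 154 ± 40.6 CPM (SD, n = 7) in the livers, with a log2 fold change of 9.49 over the heart (SE 0.39, adjusted p = 5.09e-18, edgeR), and HJV, a BMP co-receptor upstream of it, was at 66.3 ± 16.5 CPM (SD, n = 7). Of the ID genes, which BMP signals switch on, ID1 was at 55.2 ± 12.3, 61 ± 16.1 and 44.3 ± 11.6 CPM in heart (SD, n = 9), gonad (SD, n = 8) and liver (SD, n = 7), not higher in any organ by the rule above. ID2 was higher in the gonad libraries by 1.02 (SE 0.178, adjusted p = 2.24e-05, edgeR). ID3 was listed at 0 in every library.

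In maternal blood, 29 members passed a minimum of 10 counts in 4 libraries, with 8 of the 30 ligands among them and all 8 SMADs. TGFB1 stood at 306 ± 33.6 CPM (SD, n = 10), with a range from 278 to 386 CPM. Receptors and SMADs of the TGFB branch were present in all 10 libraries, with TGFBR2 at 185 ± 22.2 CPM, SMAD2 at 121 ± 12.9 CPM, SMAD4 at 98.5 ± 7.63 CPM, SMAD3 at 82.7 ± 11.8 CPM and TGFBR1 at 59.2 ± 4.53 CPM (SD, n = 10). TGFBR2 ranged from 159 to 236 CPM. Most BMP ligands were near 0, as BMP7 with at most 4 counts and BMP2 with at most 2, and BMP10, GDF2, GDF5, GDF6, GDF15 and BMP15 had 0 counts in all 10. BMP4 was at 9.23 ± 2.07 CPM (SD, n = 10). SMAD1 (2.84 ± 2.5 CPM, SD, n = 10) varied from 0.0753 to 9.02 CPM.

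Along fetal weight, the members called in the heart were SMADs. A slope is the log2 change per 0.1 g of fetal weight, tested within each tissue over genes that reached 10 counts in 4 or more of its libraries. In the heart, 4 of 40 members had a slope in either direction (6.77% of 16250 genes). All 4 were SMADs that rose with weight (5.22% of all genes rose). No member fell (1.54% of all genes fell). At an unadjusted p under 0.05, 9 members had a positive slope (16.4% of all genes) and 1 a negative slope (12.7%). All 8 SMADs had positive slopes, with a median of 0.22 against −0.01 over all genes.

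SMAD7 was 11.1 to 21.1 CPM in the 5 lighter ET_D7 hearts and 20.4, 20.9, 24.6 and 36.3 CPM in fetuses 6, 8, 9 and 10. The heart of fetus 10 was the highest, and the groups overlapped only through fetus 3. Its slope was 0.26 (SE 0.0545, adjusted p = 0.0395, edgeR). SMAD6 was 35.1, 32.6, 39.5, 39.7 and 37.6 CPM in fetuses 1 to 5 and 55.9, 55.3, 56.3 and 60.3 CPM in fetuses 6, 8, 9 and 10. The 2 groups did not overlap, and the values changed little within each (slope 0.18, SE 0.041, adjusted p = 0.0414, edgeR). SMAD2 was 45.5 to 64.9 CPM in the ET_D7 hearts and 68.4 to 79.1 CPM in the ET_D9 hearts, again without overlap (slope 0.14, SE 0.0372, adjusted p = 0.0494, edgeR). SMAD1 was 6.55 to 19.8 CPM in the ET_D7 hearts, 15.2, 19.4 and 15.3 CPM in fetuses 6, 8 and 9, and 41.9 CPM in fetus 10. Its slope of 0.38 (SE 0.0991, adjusted p = 0.0497, edgeR) was 0.22 without fetus 10 (adjusted p = 0.467, edgeR).

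**Figure D2:**
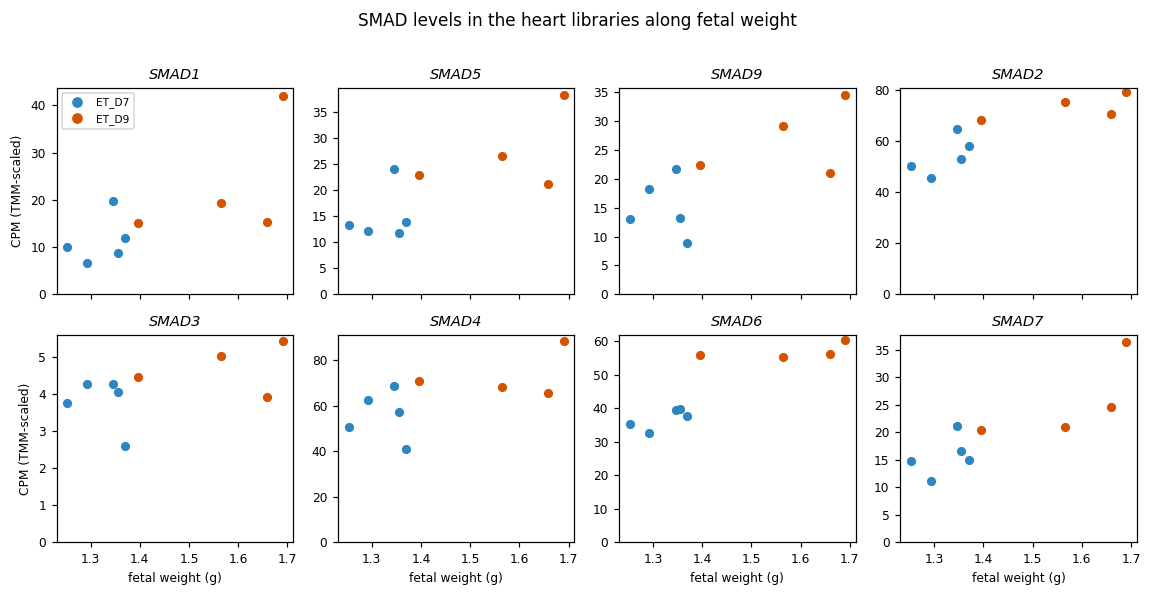
Level in CPM (y axis) of the 8 SMADs in each of the 9 heart libraries against fetal weight in g (x axis), blue for ET_D7 and orange for ET_D9. SMAD6 steps from at most 39.7 CPM to at least 55.3 CPM between the groups, whereas SMAD1 owes its highest point of 41.9 CPM to fetus 10.

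The remaining SMADs had slopes of 0.28 (SMAD5, SE 0.0782, adjusted p = 0.0554, edgeR), 0.25 (SMAD9, SE 0.087, adjusted p = 0.0968), 0.11 (SMAD4, SE 0.0545) and 0.08 (SMAD3, SE 0.0644). SMAD5 was 11.7 to 24 CPM in the ET_D7 hearts and 21.1 to 38.2 CPM in the ET_D9 hearts. No other tissue had 8 positive slopes, with 4 of 8 in the gonad libraries, 3 in the liver and 3 in maternal blood.

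**Figure D3:**
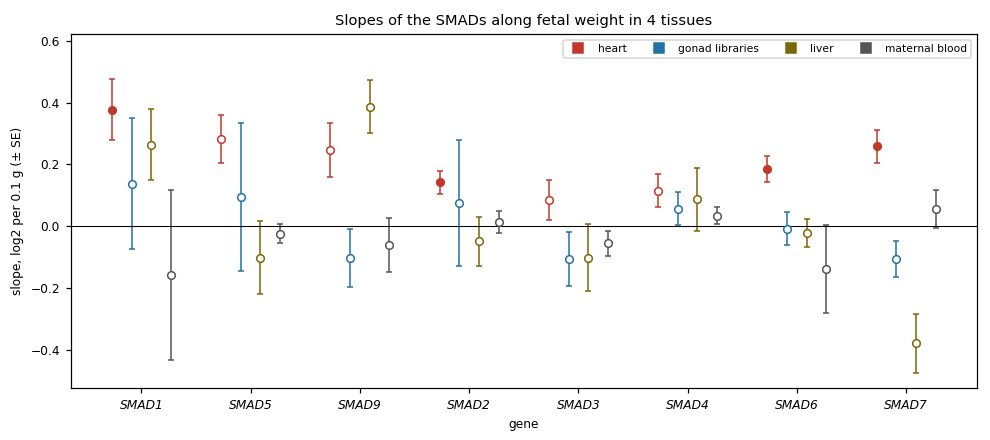
Slope of each SMAD along fetal weight (log2 per 0.1 g, y axis) with its standard error in heart, gonad libraries, liver and maternal blood, filled where the adjusted p was under 0.05. The heart slopes are all above 0, from 0.08 for SMAD3 to 0.38 for SMAD1, and SMAD7 lies at 0.26 in the heart and −0.38 in the liver.

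With the transfer group as a covariate the SMAD median was 0.08, and no member and none of the 16250 genes tested was called. With the group in place of weight SMAD6 alone among the members was called, by 0.63 (adjusted p = 0.0492, edgeR), and 8 genes were called in all. Leaving out fetus 1, 2, 4, 5, 8 or 10 left no member and 0 genes of any kind called. In those 6 fits all 8 SMAD slopes were positive, with a median of 0.2 to 0.21 and SMAD6 at 0.17 to 0.2, while SMAD1 was at 0.22 without fetus 10. Leaving out fetus 3 gave 12 members, with 3947 of 15907 genes called in that fit. The mitochondrial share of the hearts moved with weight, at 45.11%, 57.27%, 23.46%, 41.48% and 40.85% in fetuses 1 to 5 and 38.97%, 25.5%, 28.51% and 17.13% in fetuses 6, 8, 9 and 10. With that share as a covariate, a fit chosen after the data were seen, all 8 slopes were still positive with a median of 0.08. No member and none of the 16250 genes was called in that fit, and SMAD1 was at 0.07, SMAD2 at 0.07, SMAD6 at 0.16 and SMAD7 at 0.12. Markers of endothelium, in which SMAD6 is known to be abundant, also differed between the groups. Their 6 genes summed to 252 to 293 CPM in the ET_D7 hearts and 311 to 400 CPM in the ET_D9 hearts, while 8 heart muscle genes summed to 26100 to 35900 CPM and 24900 to 30800 CPM. The part of endothelial content in the SMAD slopes was not tested.

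**Figure D4:**
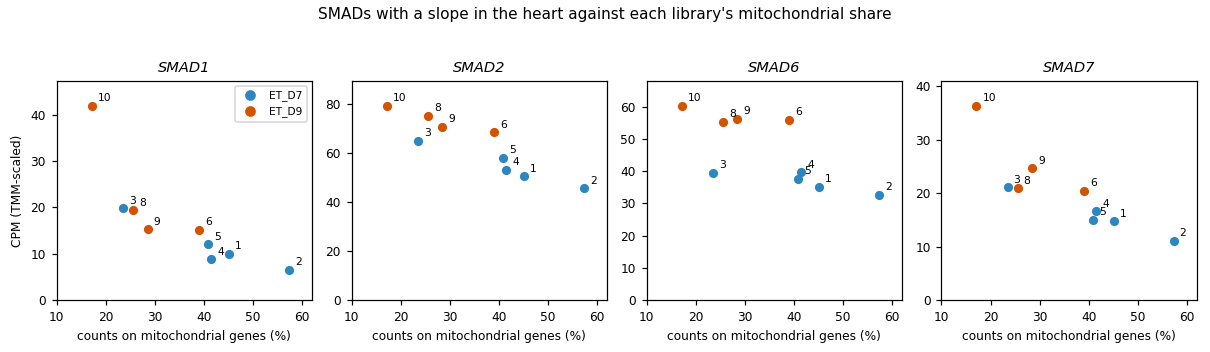
Level in CPM (y axis) of the 4 SMADs with a slope in the heart against the percentage of each library's counts on mitochondrial genes (x axis), with points labelled by fetus and coloured by transfer group. Fetus 10, at 17.13%, has the highest level of all 4 genes, and fetus 2, at 57.27%, the lowest.

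Among the other heart members, ACVR1 had a slope of 0.12 (SE 0.0327, adjusted p = 0.0513, edgeR), and all ET_D9 hearts (42.9 to 52.8 CPM) lay above all ET_D7 hearts (31.1 to 41.8 CPM). With SMAD6 and SMAD2 it was 1 of 3 of the 40 members with every ET_D9 heart above every ET_D7 heart, against 6.36% of all genes, and no member had the reverse (3.38%). TGFBR3 had a slope of 0.08 (SE 0.0289, adjusted p = 0.0903, edgeR) and TGFB3 of 0.13 (SE 0.058, adjusted p = 0.167, edgeR). INHBA was the single member with a negative slope at an unadjusted p under 0.05, at −0.25 (SE 0.102, adjusted p = 0.135, edgeR), with 185 CPM in fetus 2 and 46.3 CPM in fetus 10. Weight as a natural cubic spline (3 degrees of freedom) called 0 members and 0 of all genes in the heart by edgeR, with 4 members at an unadjusted p under 0.05 (7.99% of all genes). DESeq2 called 2 members (SMAD6 and SMAD7) and 535 of 16250 genes.

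In the liver, 2 of 39 members fell with fetal weight (1.79% of all 16605 genes) and none rose (0.44%). BMP3 was 24 to 74 counts in the livers of fetuses 1 to 5, or 1.69 to 2.41 CPM, and 1, 0 and 0 counts in fetuses 8, 9 and 10. No liver lay between 1.37 g and 1.565 g, so a step between the groups and a gradient along weight cannot be told apart. The BMP3 slope was −2.05 (SE 0.383, adjusted p = 0.0341, edgeR). It became −0.14 with the transfer group as a covariate, a fit in which none of the 16605 genes was called. Among all genes, 194 had this pattern of at least 20 counts in livers 1 to 5 and at most 1 in the other 3, and 32 had the reverse, and BMP3 was the single member among them. BMPR2, the type II BMP receptor, was 46.6, 42.9, 22, 30.6 and 32.5 CPM in fetuses 1 to 5 and 24.5, 19.1 and 20.6 CPM in fetuses 8, 9 and 10. Its highest values came from the near-identical livers 1 and 2, and its slope of −0.26 (SE 0.0574, adjusted p = 0.0496, edgeR) was −0.25 with those merged (adjusted p = 0.153, edgeR, chosen after the data were seen). The spline called BMP3 alone among members (1.81% of all genes).

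At an unadjusted p under 0.05, 3 members had a positive liver slope (5.97% of all genes) and 4 a negative one (11.2%). Closest to the adjusted threshold, SMAD9 had a slope of 0.39 (SE 0.0859, adjusted p = 0.0515, edgeR), with 2.61 to 4.71 CPM in the 5 ET_D7 livers and 9.45, 7.76 and 9.28 CPM in the others. SMAD7 had the opposite sign, −0.38 (SE 0.0966, adjusted p = 0.0778, edgeR), with 11.8 and 11 CPM in livers 1 and 2 and 3.35 to 4.05 CPM in fetuses 8, 9 and 10. BMPR1B was at 0.39 (SE 0.126, adjusted p = 0.141, edgeR). Of the 39 members, TGFBR1, BMPR1B, SMAD1 and SMAD9 had every ET_D9 liver above every ET_D7 liver (8.48% of all genes), and BMP3 had every one below (5.73%). Without fetus 8, 9 or 10, neither the slope of BMP3 nor that of BMPR2 was called (BMP3 from −1.95 to −1.82). BMPR2 also lost its call without fetus 1, 2 or 5.

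**Figure D5:**
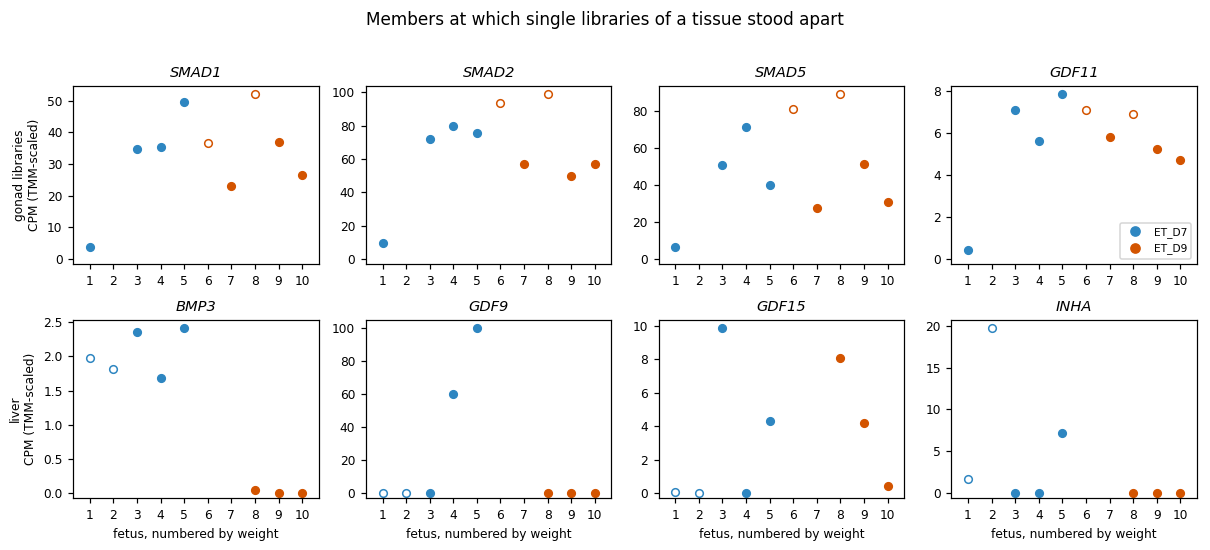
Level in CPM (y axis) of members at which single libraries stood apart, against the fetus number by weight (x axis), for the gonad libraries (top) and the liver (bottom), coloured by transfer group with open circles for near-identical pairs. The gonad library of fetus 1 is far below the others for SMAD1, SMAD2, SMAD5 and GDF11, and liver BMP3 falls from at least 1.69 CPM in fetuses 1 to 5 to at most 0.0422 CPM in fetuses 8, 9 and 10.

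Slopes of 43 members were compared between organs in 1 fit of the organ libraries. Heart and liver slopes differed for 6 members (8.79% of 18285 genes, with 11 members and 23.4% of genes at an unadjusted p under 0.05), gonad and liver slopes for 3 (5.48%) and heart and gonad slopes for 0 by edgeR (0.0164% of all genes, and 3 members against 7.39% of genes at an unadjusted p under 0.05). Over the 3 contrasts these were 7 members, and with the fetus as a block 4 of them were called (BMP3, BMPR1B, BMPR2 and SMAD7). Leaving out 1 fetus at a time took the count as low as 2, without fetus 10, with SMAD7 called in every such fit. The shares of all genes called in the block and leave-out fits are not given here. The highest SMAD7 levels in the liver, 11.8 and 11 CPM, came from the near-identical livers 1 and 2. Leaving out either of these keeps the other, and no fit of the slope differences with them merged is given here. The SMAD7 slope in the heart exceeded that in the liver by 0.62 (SE 0.101, adjusted p = 0.000283, edgeR). BMPR2 differed between heart and liver by 0.32 (SE 0.078, adjusted p = 0.011, edgeR), BMP3 by 2.16 (SE 0.439, adjusted p = 0.00267, edgeR) and BMPR1B by −0.54 (SE 0.132, adjusted p = 0.0115, edgeR). SMAD1, SMAD2 and SMAD6 had differences of 0.09 (SE 0.207), 0.17 (SE 0.165) and 0.18 (SE 0.0668, adjusted p = 0.0858, edgeR), none called, so the heart slopes of these 3 were not shown to differ from those in the liver.

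In the gonad libraries, no member and none of the 17809 genes tested had a slope or a spline called by edgeR. At an unadjusted p under 0.05, 1 of 39 members had a slope (5.62% of all genes), a negative one (3.24% were negative and 2.38% positive), and 5 had a spline effect (12.6%). The one was ACVR1B, at −0.19 (SE 0.0551, adjusted p = 0.849, edgeR), with 40.1 CPM in fetus 1 and 17.8 to 26.6 CPM in the others. SMAD7 had a slope of −0.11 (SE 0.0588), BMP6 of 0.11 (SE 0.0619) and BMP4 of −0.06 (SE 0.0457). SMAD7 and ACVR1B were the 2 members with every ET_D9 library below every ET_D7 library (4.3% of all genes).

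The gonad library of fetus 1 stood apart at 4 members. SMAD1 was 3.89 CPM there and at least 23.1 CPM in the other 8, SMAD2 was 9.48 CPM and at least 49.8 CPM, SMAD5 was 6.4 CPM and at least 27.8 CPM, and GDF11 was 0.432 CPM and at least 4.74 CPM. These genes, 4 of 39 members, lay under 0.25 of the lowest other library, as did 681 of the 17809 genes tested (3.82%). In the gonad library of fetus 8 the same held for BMP8A, GDF6 and INHA and for 4.47% of genes. Fetus 6, whose gonad library agreed within sampling noise with that of fetus 8 at most genes, was not low at them. GDF11, SMAD1 and SMAD2 were called by the spline when that pair was merged (866 of 17790 genes), and those 3 with SMAD5 and ACVR1B were called by DESeq2 (1358 of 17809 genes).

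In maternal blood, no member and none of the 16284 genes tested had a slope called. No member had one without the library of fetus 2 or without that of fetus 5. The spline called 0 of 29 members and 0.129% of genes. At an unadjusted p under 0.05, 1 member had a slope (9.69% of all genes) and 5 a spline (9.77%), and DESeq2 called the spline of GDF11 and TGFB2 (484 of 16284 genes). TGFB2 had the largest slope at 0.8 (SE 0.351, adjusted p = 0.504, edgeR), with 19.5 CPM in the blood of the dam of fetus 8 and 0.555 to 2.85 CPM in the other 9. BMPR1B was at −0.53 (SE 0.283, adjusted p = 0.577, edgeR), ACVR1 at −0.18 (SE 0.0925) and BMPR1A at 0.16 (SE 0.0883). None of the 29 members had blood groups without overlap (0.657% of all genes were higher and 0.633% lower in every ET_D9 library).

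Of the pathway genes outside the family, 1 of 51 rose with weight in the heart (5.22% of all genes) and 1 fell (1.54%). CCN2, a matrix gene induced by TGFB, had a slope of 0.52 (SE 0.104, adjusted p = 0.0395, edgeR) and a mean of 233 ± 181 CPM (SD, n = 9). RGMA, a BMP co-receptor, had a slope of −0.3 (SE 0.0718, adjusted p = 0.0428, edgeR). The BMP target ID2 was at 0.23 (SE 0.0613, adjusted p = 0.0525, edgeR) and ID1 at 0.12 (SE 0.0596, adjusted p = 0.207, edgeR). In the liver, 1 of 50 fell (1.79% of all genes), the co-receptor RGMB at −1.13 (SE 0.224, adjusted p = 0.0388, edgeR), and HAMP was at −0.22 (SE 0.0516, adjusted p = 0.0629, edgeR). In the gonad libraries (57 tested) and maternal blood (41 tested), 0 were called by edgeR, with 2 positive and 3 negative slopes in the gonad libraries and 2 positive slopes in blood at an unadjusted p under 0.05.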

How the data were processed

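The authors checked reads with FastQC 0.11.9, trimmed them with Trimmomatic 0.39, mapped them with STAR 2.7.0b to ARS-UCD1.3 and deposited whole-number read counts per gene from featureCounts (Subread 2.0.3). Counting options are not given in the sources used here. Depth limits low members, and p-values measure the spread between fetuses, with near-identical pairs entering the fits as 2 libraries.

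Symbols came from RefSeq by Entrez identifier (31630 of 35092 matched). The table's assembly is another than that of the counts, so no coordinates are given, and no sequences or gene lengths were used. edgeR 4.0.16 (R 4.3.3) with TMM scaling and Benjamini-Hochberg adjustment over all genes tested was the main test, and DESeq2 1.42.0 an alternative. The organ fit used every gene with a count, and fits along weight used genes with at least 10 counts in 4 libraries of the tissue. SEs were derived from the F statistic. Scripts were tested on simulated data.

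The members and lists were chosen with earlier results of these data known. Given in full were, per organ, up to 8 members called higher, by the smaller of their 2 fold changes, and, per tissue, those called along weight or else the 4 with the smallest slope p. Others were chosen for their role after their values were seen.

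Organs share fetuses, so fetus numbers pair the libraries. Deviations from the organ means correlated with a median r of 0.03 over 23 pairs of the same fetus and −0.01 over 202 pairs of different fetuses.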

Additional observations from a re-analysis of the deposited data

Results flagged for a closer look

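Within a tissue, 147 combinations of a member and a tissue were examined for a library that stood apart from its nearest neighbour by a large share of the group's range (Dixon's criterion). Of these, 20 had one. A rate of 1 in 20 would give 7.3, but that holds only for independent combinations. Several of the 20 came from the same library, so no excess over chance is claimed. In the heart these were SMAD1 at 41.9 CPM in fetus 10 (next 19.8 CPM), BMP4 at 70 CPM in fetus 2 (next 54.8 CPM), TGFBR2 at 32.6 CPM in fetus 3 (next 21.2 CPM) and, at the low end, GDF11 at 1.01 CPM in fetus 8 (next 1.79 CPM). In the gonad libraries, fetus 1 was the highest for ACVR1B at 40.1 CPM (next 26.6 CPM) and BMP4 at 104 CPM (next 76.8 CPM) and the lowest for GDF11 at 0.432 CPM (next 4.74 CPM). INHA reached 9.01 CPM in fetus 7 (next 4.48 CPM), and GDF5 was at 0 CPM in fetus 5 (next 0.198 CPM, with the near-identical pair averaged). In the liver, ACVR2A reached 12.2 CPM as the mean of the near-identical pair (next 6.83 CPM) and BMP5 18.3 CPM in fetus 4 (next 11.3 CPM).

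In maternal blood the library of fetus 7 was the highest for GDF11 at 22.2 CPM (next 13.5 CPM), SMAD2 at 152 CPM (next 129 CPM), TGFB1 at 386 CPM (next 334 CPM) and TGFBR3 at 82.5 CPM (next 38.4 CPM). TGFB2 was 19.5 CPM in that of fetus 8 (next 2.85 CPM), SMAD1 was 9.02 CPM in that of fetus 6 (next 3.9 CPM) and SMAD4 was lowest at 81.7 CPM in that of fetus 2 (next 93.7 CPM). GDF1 reached 1.84 CPM (next 1.01 CPM) and BMP6 1.41 CPM (next 0.693 CPM).

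Slopes along weight differed between organs by edgeR's quasi-likelihood test for 7 members. Heart minus liver was 2.5 for INHA, 2.16 for BMP3, 0.62 for SMAD7, 0.35 for ACVR2A, 0.32 for BMPR2 and −0.54 for BMPR1B. Gonad minus liver was 2.08 for BMP3, −0.52 for BMPR1B and −0.52 for SMAD9. The liver counts of INHA and BMP3 jumped between libraries, from 0 to 423 and from 0 to 74.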

How the results depend on the processing

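Requiring a log2 fold change above 1 left 4 members higher in the heart and 8 in the gonad libraries. The share of all genes under that rule is not given here, so these counts are not read as a result about the members. A filter of at least 10 counts in 8 libraries left 3 of 43 members higher in the liver (26.7% of 18285 genes). The number of members with a heart slope was 0 with the transfer group as a covariate, 0 with the mitochondrial share as a covariate, 1 with the group in place of weight, 2 over all genes with a count, 2 without mitochondrial genes in the normalization, 8 in DESeq2, and 0 to 12 leaving out 1 fetus. In the same order, these fits called 0, 0 and 8 of 16250 genes, 706 of 22766, 931 of 16250 and 3066 of 16250. Leaving out 1 fetus called 0 to 3947 genes. The liver slope number was 0 with the transfer group as a covariate, 0 over all genes with a count, 1 with near-identical libraries merged, 4 with the mitochondrial share, 4 in DESeq2, and 0 to 5 leaving out 1 fetus (5 without fetus 4). These liver fits called, in that order, 0 of 16605 genes, 157 of 22416, 255 of 16372, 532 of 16605 and 1518 of 16605. Leaving out 1 fetus called 23 to 740 genes (740 without fetus 4). For the spline, DESeq2 called 2 members in the heart, 5 in the gonad libraries, 5 in the liver and 2 in blood. Over all genes it called 535 of 16250, 1358 of 17809, 1771 of 16605 and 484 of 16284 in the same order. The gonad spline number was 3 with merged libraries and 0 to 7 leaving out 1 fetus (7 without fetus 8 and 4 without fetus 7). Over all genes, merging called 866 of 17790, leaving out fetus 8 called 1501 of 17688 and leaving out fetus 7 called 905 of 17631. The liver spline number was 0 with the transfer group as a covariate, 0 with merged libraries, 0 with the newer quasi-likelihood estimate of edgeR, and 0 to 1 leaving out 1 fetus, and the blood number was 0 to 1 (GDF11 without fetus 8 and TGFB2 without fetus 7). Over all genes, the liver fits called 0 of 16605, 292 of 16372, 410 of 16605 and 234 to 593. The blood spline called 134 genes without fetus 8 and 34 without fetus 7. Merging, the newer estimate and the mitochondrial share were chosen after the data were seen.

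With the fetus as a replicate block, slope differences between organs were called for 4 members in place of 7, and leaving out 1 fetus gave 2 to 8 (3 without fetus 2, 4 without fetus 8, 4 without fetus 9 and 2 without fetus 10). The shares of all genes called in these fits are not given here, so the counts are not read as a result about the members. The block also ended the calls of GDF6, GDF11 and GDF9 and added SMAD9 to the members higher in the gonad libraries, and it changed no other call of a member examined here.

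Signs turned for GDF9 in the liver in DESeq2 (−2.82), for the slopes of SMAD7 in the gonad libraries (0.08) and BMPR1B in blood (0.04) with the transfer group as a covariate, and for BMP4 in the gonad libraries (from −0.09 to 0 leaving out 1 fetus). The causes were not tested. Of the other values for single members, 511 kept their direction and their side of the threshold and 76 kept the direction only. Depth limits the ligands under 10 counts, for which no difference between organs was detectable.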
